A study of Rattus norvegicus with 6 samples.

Results

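The transporters that carry bile acids, sterols, phospholipid and organic anions across the membranes of liver cells were examined in 6 rat livers. The 10 genes were a list of uptake carriers and exporters, matched by RefSeq transcript to rows of the deposited table, with the brightest row to be kept per gene. All 10 were found, among 7126 named genes and 19345 rows, and each had 1 row. The list was drawn up with the differences between the regimens in view. The members' differences are therefore descriptions, without a test, and a member that stood out did not do so independently of its choice.

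The animals were male Sprague-Dawley rats between 90 and 120 days old. Uncontrolled hemorrhagic shock was set off by cutting the tail, and both groups received Ringer's solution, a balanced salt solution, from then on. Under limited resuscitation the mean arterial pressure was held at 50 to 60 mmHg, and under aggressive resuscitation the aim was to keep it over 80 mmHg. Livers were taken at 330 min. Of the 6 rats assigned to each regimen, 3 were profiled, each on its own 1-colour NimbleGen array. Every rat on these arrays had been bled and infused, so a difference sets 1 regimen against the other, and animals without shock were not analysed here.

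Bile is formed when hepatocytes take up bile acids and other organic anions from sinusoidal blood and pump them, with cholesterol and phospholipid, across the canalicular membrane. Sodium-dependent and organic anion carriers serve uptake, and ATP-binding cassette pumps serve export. Bile duct cells can recover bile acids from bile through an apical carrier, and an export pump on the sinusoidal side returns conjugates to blood. Many of these genes are under the control of nuclear receptors that sense bile acids and sterols.

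The promoters of the members whose arrays did not overlap between the regimens are shown first, since these genes carry the differences described below. The sequences are RefSeq's for assembly GRCr8, in which 8 of the 10 genes had an entry, and Abcb11 and Abcc3 did not. Each is the 250 bases before the annotated start, on the gene's strand, at chr6:106357945-106358194 (minus) for Slc10a1, chr4:176282334-176282583 (plus) for Slco1b2, chr16:91087839-91088088 (plus) for Slc10a2 and chr4:26164146-26164395 (minus) for Abcb4. Abcg8 and Abcg5 lie head to head on chromosome 6, and the 205 bases between their starts, chr6:15717731-15717935, are given on the plus strand, which is that of Abcg5. Capitals mark AGGTCA, a half-site that nuclear receptors bind, and GTTAAT, a half-site of the hepatocyte nuclear factor HNF1, on either strand.
Slc10a1: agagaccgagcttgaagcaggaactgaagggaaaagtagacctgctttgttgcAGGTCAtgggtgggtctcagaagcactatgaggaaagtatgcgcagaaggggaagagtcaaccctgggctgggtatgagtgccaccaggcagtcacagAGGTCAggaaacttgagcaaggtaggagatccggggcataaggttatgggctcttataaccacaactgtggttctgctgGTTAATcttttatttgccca
Slco1b2: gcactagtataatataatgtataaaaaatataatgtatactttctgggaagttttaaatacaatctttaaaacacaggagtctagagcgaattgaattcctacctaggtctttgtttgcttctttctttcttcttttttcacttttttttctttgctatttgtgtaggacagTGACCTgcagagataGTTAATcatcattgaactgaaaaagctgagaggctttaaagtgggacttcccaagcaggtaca
Slc10a2: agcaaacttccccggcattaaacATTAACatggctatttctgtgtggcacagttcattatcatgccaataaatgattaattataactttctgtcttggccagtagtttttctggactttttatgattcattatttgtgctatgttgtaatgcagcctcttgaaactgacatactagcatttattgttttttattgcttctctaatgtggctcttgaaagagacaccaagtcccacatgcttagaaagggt
Abcb4: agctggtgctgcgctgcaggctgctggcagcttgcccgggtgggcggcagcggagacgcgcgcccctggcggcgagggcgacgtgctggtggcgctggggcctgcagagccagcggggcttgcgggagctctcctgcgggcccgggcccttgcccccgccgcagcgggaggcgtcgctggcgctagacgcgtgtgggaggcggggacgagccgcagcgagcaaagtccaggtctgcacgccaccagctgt
Abcg8-Abcg5: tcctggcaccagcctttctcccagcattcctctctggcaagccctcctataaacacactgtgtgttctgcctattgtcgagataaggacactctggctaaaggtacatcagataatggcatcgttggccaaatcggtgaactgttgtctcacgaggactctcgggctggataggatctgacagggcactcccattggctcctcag

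The Slc10a1 promoter held AGGTCA at -197 and -99 and GTTAAT at -20, counted from the annotated start to the first base of the match. The Slco1b2 promoter held the reverse complement of AGGTCA at -78 and GTTAAT at -63. The Abcc2 promoter, not shown, held as many matches as that of Slc10a1, with AGGTCA at -155, its reverse complement at -115 and the reverse complement of GTTAAT at -100, and the log2 difference of Abcc2 between the regimens was -0.01. In the Slc10a2 promoter the reverse complement of GTTAAT stood at -227, and these letters were in neither the Abcb4 window nor the stretch between Abcg8 and Abcg5. Among 33469 promoters of the same length, 14.1% held AGGTCA and 6.45% held GTTAAT on at least 1 strand. CAAGGTCA, which contains AGGTCA and is bound by NR5A2, was in 1.33% of all promoters. The FXR IR-1 element, which also contains AGGTCA, was in 0.0269%, the forkhead motif TGTTTAC in 3.21% and the C/EBP motif TTGCGCAA in 0.14%. None of these 4 motifs was in the windows of the 8 genes. A match describes letters only, and no binding was measured. The Abcb4 window was rich in G and C, at 76% of its bases against a median of 51.2% over all promoters, and Slc10a2 and Slco1b2 were at 36% and 33.2%.

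Among these genes the regimens lay farthest apart in the exporters of sterol and phospholipid and in the apical bile acid carrier Slc10a2, while the carriers that take bile acids and organic anions from blood and the bile acid and conjugate pumps lay closer together. In 7 of the 10 genes the arrays of the regimens did not overlap, 5 of them higher and 2 lower under limited resuscitation. Over all rows 19.8% did not overlap, 10.0% higher and 9.76% lower. In limma's fit over all rows, the count of members with a Benjamini-Hochberg adjusted p under 0.05 was 1, Slc10a2, and 0 with any 1 array left out, while 0.114% of all rows were past that threshold (0.0414% higher and 0.0724% lower). Since the members were picked from this comparison, these counts are descriptions and nothing is read from them. In bulk tissue, fewer cells of a type and less RNA per cell cannot be told apart.

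**Figure D1:**
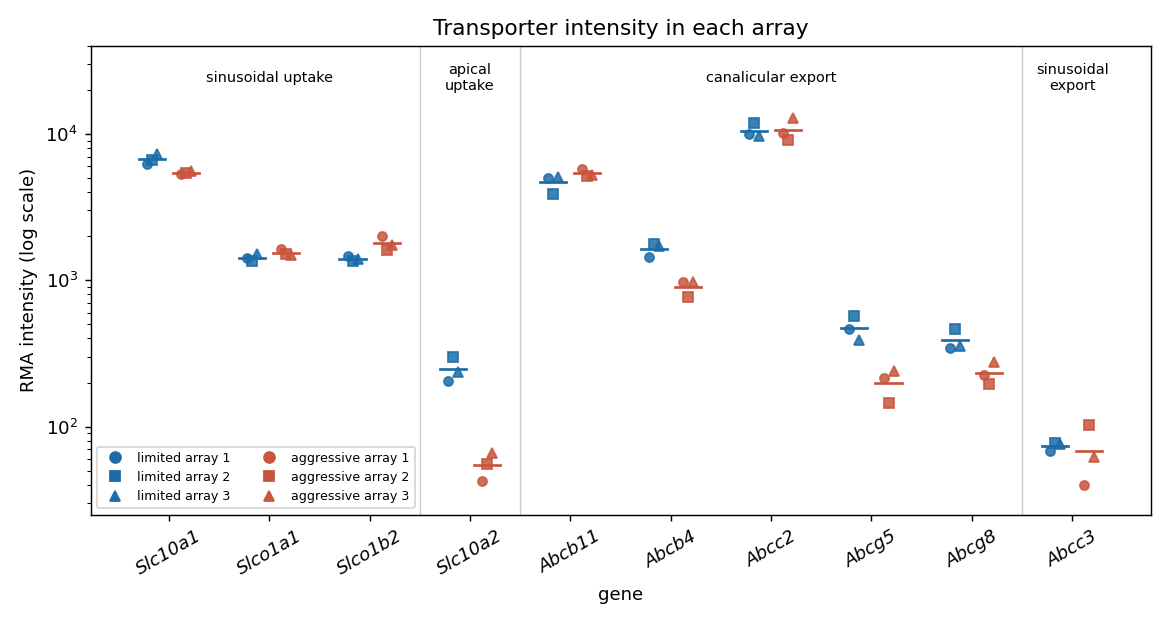
RMA intensity (log scale) of each transporter in the 3 limited (blue) and 3 aggressive (red) arrays, with horizontal bars at the group means and marker shapes for the array number. The groups are apart for Slc10a2, Abcb4, Abcg5 and Abcg8, with narrower gaps for Slc10a1, Slco1b2 and Abcb11, and they overlap for Slco1a1, Abcc2 and Abcc3.

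Of the uptake carriers, Slc10a1 encodes NTCP, the sodium-dependent carrier that brings conjugated bile acids from blood into hepatocytes. Its intensity was 6223, 6665 and 7336 in the limited arrays against 5363, 5403 and 5543 in the aggressive arrays. All limited arrays lay above all aggressive arrays, the lowest of them by 1.12-fold over the highest aggressive array. The group means were 6741 ± 561 (SD, n = 3) and 5436 ± 94.8 (SD, n = 3), a log2 difference of 0.31. The aggressive livers lay closer to each other than the limited livers did.

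The organic anion transporting polypeptides take up bile acids, steroid conjugates and drugs without sodium. Slco1b2, the liver-specific member of the family in rodents, read 1468, 1349 and 1397 in the limited arrays and 2013, 1615 and 1749 in the aggressive arrays. Here the limited arrays were the lower ones, without overlap, and the means of 1405 ± 59.9 (SD, n = 3) and 1793 ± 202 (SD, n = 3) gave a log2 difference of -0.35. Slco1a1 read 1419, 1349 and 1515 in the limited arrays and 1635, 1519 and 1481 in the aggressive arrays. These overlapped, with limited array 3 above aggressive array 3, and the log2 difference was -0.11. Slco1a4, which lies between these genes on chromosome 4 and was not among the 10, had a log2 difference of -0.21, which was -0.11 without limited array 3. The array's probe sequences were not used here, so signal shared between such related genes was not checked.

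Slc10a2 encodes ASBT, the apical sodium-dependent bile acid carrier of ileum, kidney tubule and bile duct epithelium. Its intensity was 205, 298 and 237 in the limited arrays against 42.5, 55.4 and 65.6 in the aggressive arrays. The limited arrays stood near the array medians of 211.7 to 245.3, and the aggressive arrays far below them, with the lowest limited array 3.12-fold over the highest aggressive array. The log2 difference was 2.18, and it ranged from 2.02 to 2.33 when any 1 array was left out. No detection call was used here, and single values of the 6 measured kidney tubule markers lay between 20.9 and 121 in these livers. The aggressive values are thus not shown to lie above background, and the difference describes the measured intensities only.

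Markers of the cell types that use Slc10a2 were read beside it. Of 16 bile duct cell markers 12 were measured, and their summed intensity was 4084 to 4641 in the limited arrays and 3329 to 3954 in the aggressive arrays, without overlap. The calcium-binding protein Anxa4 gave the largest part of that sum, at 2239, 1615 and 1467 in the limited arrays and 1678, 1521 and 1391 in the aggressive arrays, which overlapped. The bile duct keratin Krt19 read 121, 153 and 137 against 100.4, 83.3 and 321, and Krt7 read 145, 64.4 and 54.1 against 86.8, 51.0 and 70.0. Both keratins overlapped between the regimens, the adhesion molecule Epcam had a log2 difference of -0.06, and 8 of the 12 markers lay below the highest array median in every array. The median log2 difference of the 12 was 0.07, and -0.10 without limited array 1 and -0.07 without aggressive array 1. The differences of single markers ran from -0.61 to 0.79. Kidney tubule markers, 6 of 10 measured, summed to 321 to 482 under limited and 329 to 447 under aggressive resuscitation. Enterocyte markers, 4 of 10 measured, summed to 4641 to 6912 and 4956 to 5945. Anpep gave the largest part of that sum, at 3781 to 6086 over the arrays, while Fabp2 and Cdx2 lay between 26.2 and 98.8. The lowest intensity of any row was 13.46, so a value above 0 does not show that a marker was expressed. The part of these cells in the difference of Slc10a2 was not tested.

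Among the canalicular exporters, Abcg5 and Abcg8 encode the partners of the heterodimer that moves cholesterol and plant sterols into bile. Abcg5 read 467, 569 and 388 in the limited arrays and 214, 144 and 240.4 in the aggressive arrays, a log2 difference of 1.27. Abcg8 read 344, 464 and 357 against 226, 194 and 276, a log2 difference of 0.74. Both were higher in all limited arrays. Within each regimen limited array 2 was the highest and aggressive array 2 the lowest of its group for both genes.

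The measured intensities of the partners did not differ by equal amounts. The log2 ratio of Abcg5 to Abcg8 within an array was 0.44, 0.29 and 0.12 under limited and -0.08, -0.43 and -0.20 under aggressive resuscitation, without overlap. The ratio differed by 0.52 between the group means, and the 2 genes start from opposite ends of the stretch of sequence shown above. The probes of 2 genes need not respond alike, and low values can be compressed. The difference in the ratio between regimens therefore describes intensities, and whether the RNAs differed by unequal amounts was not tested.

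Abcb4 encodes the floppase MDR2, which delivers phosphatidylcholine to bile. It read 1435, 1782 and 1705 in the limited arrays and 974, 765 and 971 in the aggressive arrays. The groups were apart, with means of 1641 ± 183 (SD, n = 3) and 904 ± 119.7 (SD, n = 3) and a log2 difference of 0.86. Aggressive array 2 was again the lowest and limited array 2 again the highest. On chromosome 4 Abcb4 neighbours the multidrug exporters Abcb1b and Abcb1a, whose log2 differences were -0.84 and 0.51. The arrays of Abcb1a overlapped, at 155, 158 and 239 under limited and 93.8, 128 and 168 under aggressive resuscitation. Those of Abcb1b did not overlap and lay the other way from Abcb4. Signal shared between these related genes was not checked.

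Abcb11 encodes BSEP, the pump that secretes bile acids into the canaliculus. It read 5018, 3894 and 5075 in the limited arrays and 5782, 5194 and 5229 in the aggressive arrays. The limited arrays lay lower, but the gap between the nearest arrays was 1.02-fold, and the log2 difference of -0.22 was -0.10 without limited array 2, the lowest of its group. The ratio of Abcb11 to the uptake carrier Slc10a1 was -0.31, -0.78 and -0.53 on the log2 scale under limited and 0.11, -0.06 and -0.08 under aggressive resuscitation, without overlap. Slc10a1 was higher and Abcb11 lower in all limited arrays, so the separation of this ratio was fixed by the single genes.

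Abcc2 encodes MRP2, the canalicular exporter of bilirubin and other conjugates. It read 9949, 11924 and 9717 in the limited arrays and 10082, 9067 and 12916 in the aggressive arrays. The groups overlapped across their whole width, and the log2 difference was -0.01, between -0.12 and 0.13 with any 1 array left out. Abcc3 encodes MRP3, which exports conjugates back to blood. It was dim, at 67.6, 77.7 and 76.3 against 40.0, 102 and 61.5, below the array medians in every liver. Its limited arrays lay inside the range of the aggressive ones, and its log2 difference of 0.23 turned to -0.10 without aggressive array 1 and to 0.57 without aggressive array 2.

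**Figure D2:**
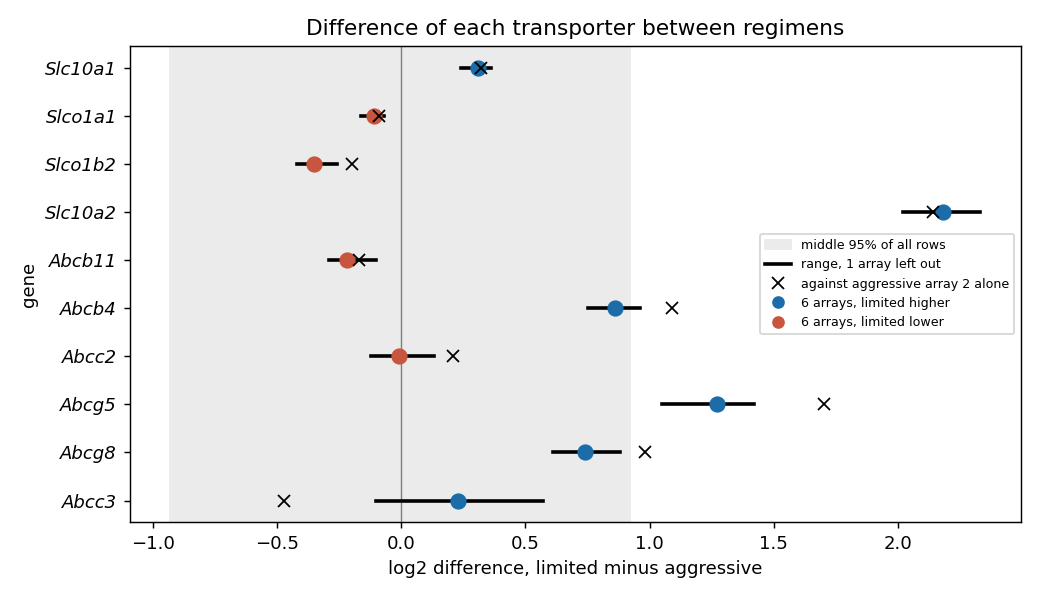
Log2 difference (limited minus aggressive) of each transporter over 6 arrays (circles), its range with any 1 array left out (bars) and its value against aggressive array 2 alone (crosses), with the middle 95% of all rows shaded. Slc10a2 at 2.18 and Abcg5 at 1.27 lie outside the shading, which spans -0.93 to 0.92, and Abcc3 is the member whose bar is longest.

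Uptake and export were then set side by side. The 4 uptake carriers had a median log2 difference of 0.10, with 2 above and 2 below 0, and the 6 exporters had 0.48, with 4 above and 2 below 0. The median over all rows was 0.01, and the median size of a difference was 0.26. Each median moved with every member left out. The uptake median was -0.11 without Slc10a2 or Slc10a1 and 0.31 without Slco1a1 or Slco1b2. The export median was 0.23 without Abcg5, Abcg8 or Abcb4 and 0.74 without Abcc3, Abcb11 or Abcc2. Without limited array 3 the uptake median was 0.04. Both classes held members on both sides of 0.

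Within export, the lipid exporters Abcg5, Abcg8 and Abcb4 had differences of 0.74 to 1.27 with a median of 0.86. The bile acid and conjugate exporters Abcb11, Abcc2 and Abcc3 had differences of -0.22 to 0.23 with a median of -0.01. This division by substrate was made after the values were seen. The log2 ratio of Abcb4 to Abcb11 was -1.81, -1.13 and -1.57 under limited and -2.57, -2.76 and -2.43 under aggressive resuscitation. The log2 ratio of Slco1b2 to Slc10a1 was -2.08, -2.30 and -2.39 under limited and -1.41, -1.74 and -1.66 under aggressive resuscitation. The groups had to be apart in both pairs, since the genes of each pair differed in opposite directions without overlap. These pairs were also chosen with their values known.

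**Figure D3:**
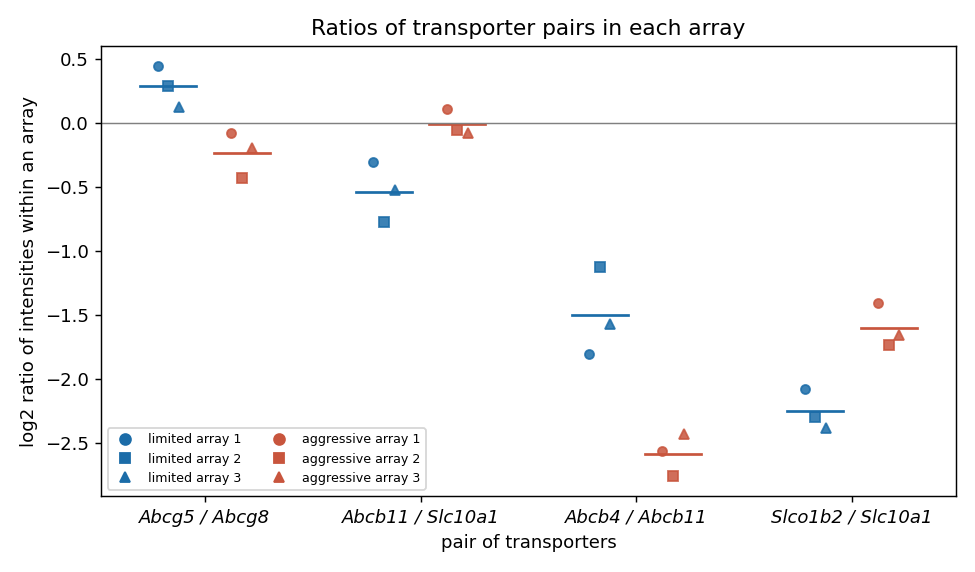
Log2 ratio of 2 transporters' intensities within each array for 4 pairs, limited arrays in blue and aggressive arrays in red, bars at the group means. In each pair the 3 limited arrays are apart from the 3 aggressive arrays, by 0.52 between the means for Abcg5 over Abcg8 and by 1.08 for Abcb4 over Abcb11. Except for Abcg5 over Abcg8, the 2 genes of a pair differ in opposite directions without overlap, so their ratios had to be apart.

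Limited array 2 was the highest of all 6 arrays for Slc10a2, Abcg5, Abcg8 and Abcb4 and the lowest for Abcb11, Slco1a1 and Slco1b2. As deviations from each gene's mean over the 6 arrays, on the log2 scale, it stood at 1.38, 0.91, 0.64 and 0.56 for the former and at -0.36, -0.14 and -0.23 for the latter. For Slc10a2, Abcg5, Abcg8 and Abcb4 all limited arrays lay above all aggressive arrays. Leaving out 1 array could therefore not turn the sign of their differences, only change the size. The lowest differences of these genes with 1 array left out were 2.02, 1.05, 0.61 and 0.75.

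Expression markers of the tissue were checked in the same arrays. All 14 hepatocyte markers were measured, and their summed intensity was 350931 to 375162 under limited and 366353 to 390089 under aggressive resuscitation, with a median log2 difference of -0.04, between -0.43 for Apoa1 and 0.18. Macrophage markers, 9 of 12 measured, summed to 43962 to 50988 under limited and 29309 to 34427 under aggressive resuscitation, without overlap, with differences from 0.08 for Vsig4 to 1.13 for Adgre1. Their part in the transporter differences was not tested. Lung markers, 11 of 12 measured, summed to 5182 and 7263 in aggressive arrays 1 and 3, against 1774 in aggressive array 2 and 2138 to 2344 in the limited arrays. Their differences ran from -3.30 for Sftpc to 0.25 for Slc34a2. Against aggressive array 2 alone, the log2 differences were 2.14 for Slc10a2, 1.70 for Abcg5, 1.09 for Abcb4 and 0.98 for Abcg8, beside 2.18, 1.27, 0.86 and 0.74 over all arrays. That array is 1 rat. The differences there were 0.21 for Abcc2 and -0.47 for Abcc3, each with its sign turned.

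**Figure D4:**
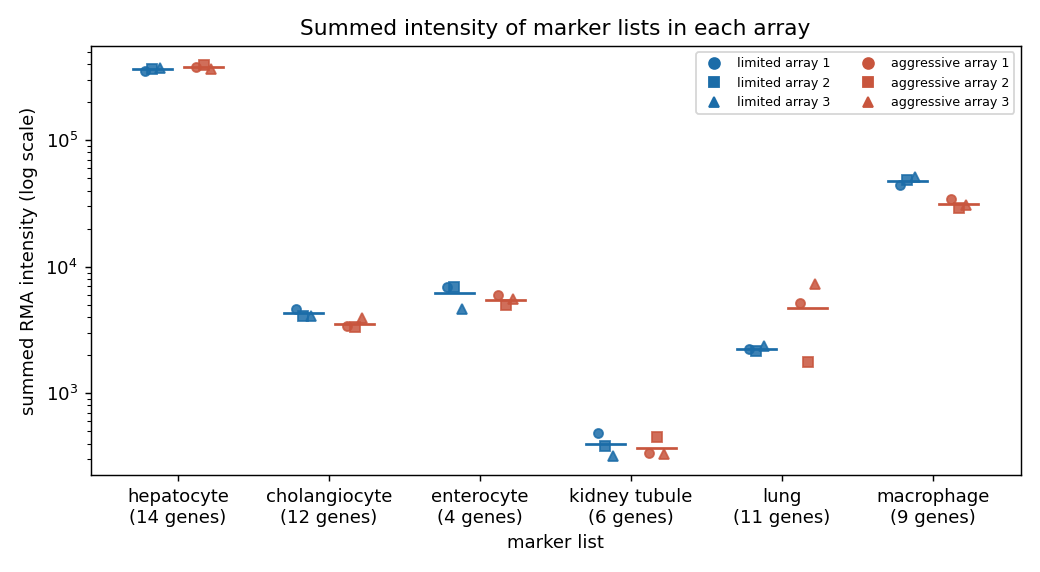
Summed RMA intensity (log scale) of the measured genes of 6 marker lists in each array, limited in blue and aggressive in red, bars at the group means. Hepatocyte sums lie close together, macrophage sums are higher in all limited arrays, and the lung sums of aggressive arrays 1 and 3, at 5182 and 7263, stand above the other 4 arrays.

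Other carriers of bile acids and organic ions showed no row that passed. Of 28 listed genes 22 were measured, 16 with a difference above and 6 below 0, with a median of 0.19. By limma's adjusted p 0 passed, at an unadjusted p under 0.05 there were 3 higher and 1 lower (13.1% of all rows, 6.86% higher and 6.19% lower), and with an intensity trend and robust prior 1 higher and 1 lower passed (2.95% of all rows). Abcg2, an exporter of sulfated conjugates and drugs at the canaliculus, read 126, 116 and 185 in the limited arrays against 65.4, 38.1 and 77.3, below the array medians throughout. The log2 difference was 1.27 and did not pass (adjusted p = 0.192, limma). The multidrug exporter Abcb1b lay the other way, at 526, 787 and 544 against 903, 1148 and 1249 (adjusted p = 0.227, limma). The organic anion carriers Slc22a8 and Slco2b1 had differences of 0.59 and 0.56 (adjusted p = 0.298 and 0.344, limma), and Slco1a4 had -0.21.

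Other carriers of sterols and lipids were measured for 10 of 21 listed genes, 9 of them with a difference above 0, with a median of 0.41. By limma's adjusted p 0 passed, at an unadjusted p under 0.05 there were 2 higher and 1 lower (6.86% and 6.19% of all rows), and with an intensity trend and robust prior 1 higher and 1 lower passed (2.95% of all rows in either direction). Abca1, which exports cholesterol to apolipoprotein A-I, read 1689, 1633 and 2590 in the limited arrays against 3413, 3029 and 3472, a difference of -0.78 (adjusted p = 0.252, limma). Npc2, a lysosomal cholesterol carrier, and Lcat, which esterifies cholesterol in plasma, had differences of 0.50 and 0.32 (adjusted p = 0.333 and 0.509, limma).

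Regulators and scaffolds of these transporters were measured for 33 of 36 listed genes, 23 with a difference above and 10 below 0, with a median of 0.36 that was 0.23 without aggressive array 2. By limma's adjusted p 0 passed, at an unadjusted p under 0.05 there were 11 higher and 2 lower (6.86% and 6.19% of all rows), and with an intensity trend and robust prior 5 higher and 0 lower passed (2.95% of all rows in either direction). Cebpa, a hepatocyte transcription factor, read 4437, 5792 and 4079 in the limited arrays against 1531, 1097 and 1901, a log2 difference of 1.68 (adjusted p = 0.0829, limma). Nr1i3, the xenobiotic receptor CAR, read 656, 779 and 626 against 297, 387 and 363, a difference of 0.98 (adjusted p = 0.141, limma). In both genes the groups were apart.

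The bile acid receptor FXR, encoded by Nr1h4, read 1543, 2000 and 1904 in the limited arrays against 732, 1263 and 1375, a log2 difference of 0.74 (adjusted p = 0.344, limma) that was 0.45 without aggressive array 1. Its partner Rxra read 1360, 2068 and 2214 against 926, 1123 and 992, a difference of 0.86 (adjusted p = 0.219, limma). Both were higher in all limited arrays without passing. The coactivator Ppargc1a was dim, with a difference of -1.09 (adjusted p = 0.209, limma). Lists and members were chosen with earlier results of these data known, Cebpa among them.

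Of the enzymes that make bile acids, the sterol 12-hydroxylase Cyp8b1 read 8649, 8088 and 10275 in the limited arrays against 4632, 2993 and 5096, without overlap (adjusted p = 0.168, limma). Cyp7a1, the rate-limiting enzyme, had means of 203 ± 39.9 (SD, n = 3) and 193 ± 31.9 (SD, n = 3).

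**Figure D5:**
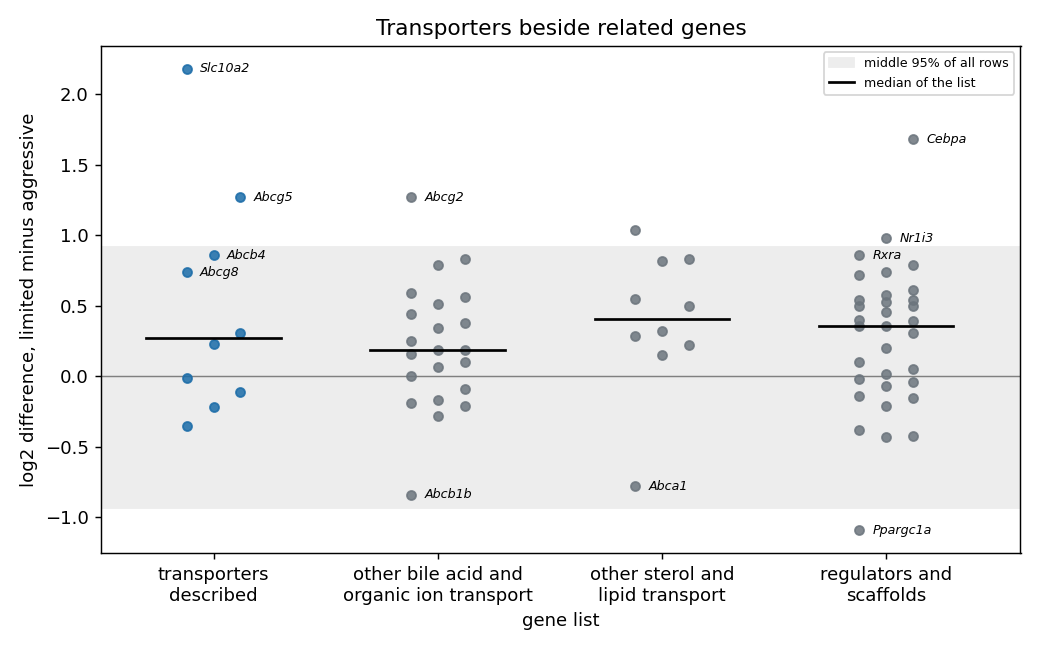
Log2 difference (limited minus aggressive) of the 10 transporters and of the measured genes of 3 related lists, each point 1 gene, with list medians as bars and the middle 95% of all rows shaded. Medians are 0.27 for the 10 transporters, 0.19 for other bile acid and organic ion transport, 0.41 for other sterol and lipid transport and 0.36 for regulators and scaffolds.

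The genes most like each member were sought among 4447 named genes brighter than the median row, by the mean absolute distance between log2 profiles centred on each gene over the 6 arrays. Nearest to Slc10a2 were the chemokine Cxcl10 at 0.24, the sterol synthesis enzyme Msmo1 at 0.31 and the glycogen-targeting phosphatase subunit Ppp1r3c at 0.32. Nearest to Abcg5 were Fxyd2, Nfe2 and Hmgcs1, a cholesterol synthesis enzyme, at 0.13, 0.14 and 0.14. Nearest to Abcg8 were Enpp2, Igfbp3 and Acat2 at 0.05, 0.06 and 0.08, and nearest to Abcb4 were Srd5a1, Cd5l and Crat at 0.06, 0.09 and 0.09. These members had no other member among their 3 nearest genes, and Slc10a2 and Abcc3 were too dim to be among the genes searched.

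Nearest to Slc10a1 were Tmem150a, Elovl1 and Acnat2, at 0.03, 0.04 and 0.04. Nearest to Slco1b2 were Rbm17, Stap2 and Pi4k2a, each at 0.04, and nearest to Slco1a1 were Rbx1, Rab14 and Ywhag, at 0.02, 0.03 and 0.03. Abcb11 lay nearest to Extl3, Atp6ap1 and Amt, each at 0.04, and Abcc2 to Cnot10, Ubald1 and Hsd17b10, at 0.02, 0.03 and 0.03. Among the 3 genes nearest to Abcc3 were Gli4 and Fyn, at 0.11 and 0.12. The profiles share their 6 arrays, so these distances describe likeness in these livers only.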

How the data were processed

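Liver RNA of 3 rats per regimen was hybridised to 1-colour Cy3 arrays. The deposited table holds 1 intensity per row and array, on a linear scale from 13.46 to 57240, made with RMA per the submitters' processing notes. RMA corrects background and normalises between arrays, which can compress low values; no version, build or probe sequence is named in the labels. Signal over background is unknown, and the number of arrays limits the precision. The correlation of log2 values across rows was 0.965 to 0.970 for arrays of 1 regimen and 0.955 to 0.963 across regimens.

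Groups came from the sample titles. Unversioned accessions were matched to RefSeq symbols (GRCr8), which named 7223 rows. Log2 intensities of all 19345 rows were fitted with limma 3.58.1 in R 4.3.3 (eBayes, two-sided, Benjamini-Hochberg over all rows, threshold 0.05) and checked on simulated data. Differences are limited minus aggressive. Named genes are every member and, per list of related genes, those that passed and the 5 largest differences without overlap, with Cyp7a1 and Cyp8b1; other genes were named after their values were seen. Some genes that this rule names are not reported here. Members and lists were chosen with earlier results of these data known. P-values test a difference against the spread between these rats, moderated by a prior drawn from all rows. Same-numbered arrays did not deviate together (r = -0.057, -0.052 and 0.050), so numbers were not taken to pair rats. Figures were drawn with matplotlib 3.10.9.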

Additional observations from a re-analysis of the deposited data

How the results depend on the processing

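The count of rows passing limma was 22, or 0.114% of all 19345 rows. It was 570 (2.95%) with an intensity trend and robust prior. Without rows below the median mean it was 483, out of the fewer rows then tested. It was 0 with the replicate number as a block and 0 to 2 with any 1 array left out. Of the 10 transporters, 1 passed, against 3 with the trend and robust prior (Slc10a2, Abcb4 and Abcg5). Without dim rows 3 passed (Abcb4, Abcg5 and Abcg8), with Slc10a2 and Abcc3 removed as dim. With the replicate block, and with any 1 array left out, 0 passed. Of the other transporters 0 passed, against 4 with the trend and robust prior and 3 without dim rows, and of the regulators 0 passed, against 5 and 3. In both of these fits the count over all rows rose as well, and nothing is read from the counts of members or lists. The fits with fewer arrays had fewer samples; otherwise the cause was not tested. The uptake median of 0.10 was -0.11 without dim rows and -0.11 to 0.31 with any 1 uptake carrier left out. The export median of 0.48 was 0.74 without dim rows and 0.23 to 0.74 with any 1 exporter left out. Leaving out members other than Slc10a2 and Abcc3 was chosen after seeing the data. Of 138 differences of single transporters under the alternatives, 133 lay within 1 SD, pooled over the regimens, of the value over all arrays. The 5 beyond it were all differences against aggressive array 2 alone. The alternatives also covered a second quantile normalisation, centring, array weights and the mean of rows per gene. The trend and robust prior, the replicate block, the mean of rows and the removal of dim rows could not change a difference. Leaving out 1 of 3 arrays could not move a difference by as much as 1 pooled SD. The values of all these alternatives are in that count but are no check on the differences. The sign turned only for Abcc2 in 6 and for Abcc3 in 2 alternatives. In members whose groups did not overlap, leaving out arrays could not turn it. With 3 arrays per regimen and Abcc3 below the array medians, small differences were not resolvable.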
